A study of Drosophila melanogaster with 4 samples.

Results

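Germline and maternal effect genes of the fly ovary were examined on microarrays of dSETD3 KO and control females. The list held 31 genes chosen by name, not by a measured value. A probe could be named for 7 of them, which are vas, tud, krimp, vls, stau, swa and tor. The name came from the study's supplementary probe tables, from RefSeq or from a transcript identifier that another named probe shares. These 7 genes had 9 probes, because vas and stau had 2 each. The array held 32162 different probes, of which 2795 could be named with 1962 different gene names. The other genes of the list, which are nos, osk, grk, bcd, orb, aub, piwi, bam, bgcn, otu, aret, exu, spn-E, png, gnu, BicC, BicD, cup, me31B, mael, zpg, pgc, gcl and CycB, had no probe that could be named here and were not analysed here. The copy of the study's probe table used here holds only part of its rows, so 7 of 31 is not a count of what the array holds.

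dSETD3 is the product of CG32732, a gene of the X chromosome, and is the fly relative of human SETD3, a methyltransferase that modifies actin. The study compared mRNA levels of knockout and control flies to look for effects of dSETD3 on transcripts in general. RNA from virgin females aged 5 days was labelled with Cy3 and hybridised to 4 Agilent arrays of 1 colour. Of these, 2 held dSETD3 KO flies of the genotype w[1118];;CG32732-/- and 2 held control flies of the genotype w[1118], so both groups carry the white mutation w[1118]. The KO allele had been made with CRISPR-Cas9 by putting a dsRED cassette in place of the first exon of CG32732, and had been backcrossed to w[1118]. The flies were lysed whole, so the germline shared each sample with every other tissue, and fewer germline cells cannot be told apart from less RNA per germline cell. The sources used here do not say how many flies made up a sample or whether the replicates came from separate crosses. Each p-value therefore measures only spread between arrays of the same genotype, which the limma fit shares in part over all probes tested.

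The share of probes with a signal well above background was 63.6% to 66.8% per array, and no spot was saturated. The 4 arrays shared 1 slide and 1 scan day, with dSETD3 KO flies at positions 3 and 4 and control flies at positions 1 and 2, so position and genotype cannot be told apart. Over the probes tested, the replicates correlated with r = 0.993 in dSETD3 KO flies and 0.991 in control flies. The first CG32732 probe had signals of 9.87 and 4.99 on the dSETD3 KO arrays, against 7810 and 8000 on the control arrays. The second had 3.47 and 3.50 on the dSETD3 KO arrays, against 1090 and 1150 on the control arrays. Neither was well above background on a dSETD3 KO array.

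Female germ cells of the fly sit in egg chambers, where nurse cells make mRNAs and proteins that are passed to the oocyte and direct the early embryo. Some of these products assemble into the nuage around nurse cell nuclei and into the germ plasm at the posterior pole, where they silence transposons through small piRNAs and specify the future germ cells. Others carry bicoid and oskar mRNA to the poles of the oocyte, and others again set up the axes and the ends of the embryo. A maternal effect gene is one whose loss in the mother, not in the embryo, disturbs development.

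The vas gene, which encodes the DEAD-box RNA helicase Vasa, is the classical marker of fly germ cells and lies on chromosome arm 2L. Its probes are shown because they read different sequences of this locus and gave separate results below. Each is a stretch of 60 bases, copied from the study's supplementary probe table, with 1 stop triplet in capitals. The reading frame of the probes was not given in the sources used here, so a marked triplet is a match of letters.
vas A_09_P009986: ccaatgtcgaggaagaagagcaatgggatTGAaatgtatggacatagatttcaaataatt
vas A_09_P000451: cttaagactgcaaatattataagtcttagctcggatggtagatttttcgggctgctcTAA
In A_09_P009986 the capitals mark a TGA at bases 30 to 32, with 9 triplets before it in the same frame and 28 bases after it. In A_09_P000451 they mark a TAA at bases 58 to 60, with 19 triplets before it and no base after it. The probes share 0 words of 8 bases. They are assigned to different transcripts, FBtr0445185 for A_09_P009986 and FBtr0445188 for A_09_P000451. RefSeq places the whole of a second gene, solo, inside the vas locus, and the sources used here do not settle whether A_09_P000451 reads vas, solo or both.

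All 9 probes were well above background on all 4 arrays, the dimmest spot being 5.91 times its local background, and so all entered the test. Values below are relative signals, in which 1 stands for the 75th percentile of the array, and log2 changes are those of dSETD3 KO flies minus control flies. Of the 9 probes, 1 changed in dSETD3 KO flies at an adjusted p under 0.05 (limma, Benjamini-Hochberg adjustment over all 21082 probes tested), and this probe, for krimp, was higher. That is 11.1% of the probes, against 20.4% of all probes tested. Over all probes 3.8% were called higher and 16.6% lower, so 18.6% of all calls were higher. This share was 36.6% after quantile normalization, 37.2% after cyclic loess and 42.3% from the deposited value table. It was 76.0% when arrays were centred on their medians, which moved the median of all probes tested from 0.02 to 0.32, and 59.4% among the 64 calls left without a filter on dim probes. With median centring 6 of the 9 probes were called, all of them higher, but that fit called 51.7% of all probes tested, 8296 of 21082 of them higher. The median of the 9 probes stood 0.16 above that of all probes in both fits, which had to be so, as every change shifts alike. This distance was 0.10 with quantile normalization, 0.11 with cyclic loess, 0.08 with normexp background correction and 0.09 from the deposited value table. It was 0.08 without the filter on dim probes and 0.17 to 0.28 with 1 array left out.

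The size of the differences was small. The median log2 change over the 9 probes was 0.18, against 0.02 over all probes tested, and 0 of the 9 probes reached a 2-fold change at an unadjusted p under 0.05, against 6.29% of all probes tested. The fitted change was above 0 for 7 of the 9 probes, against 51.6% of all probes tested. With median centring it was above 0 for 8 of the 9. That scaling moved the median of all probes tested from 0.02 to 0.32, so the 51.6% does not apply to it. Without krimp the median of the other 8 probes was also 0.18. The 95% intervals of these 8 probes lay between -0.76 and 0.58, so that a 2-fold change in either direction was outside each of them. Both dSETD3 KO arrays lay above both control arrays for 7 of the 9 probes, against 39.4% of all probes tested. They lay below them for 1, against 37.2%. The genotypes thus did not overlap for 8 of the 9 probes, against 76.6% of all probes tested. For vas probe A_09_P000451, counted among the 7, this rests on 0.1579 in dSETD3 KO replicate 2 against 0.1577 in control replicate 1. That gap is within the rounding of the values deposited for control replicate 1. At an unadjusted p under 0.05 there were 3 of 9 probes, for krimp, vas and vls, against 9265 of 21082 among all probes.

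**Figure D1:**
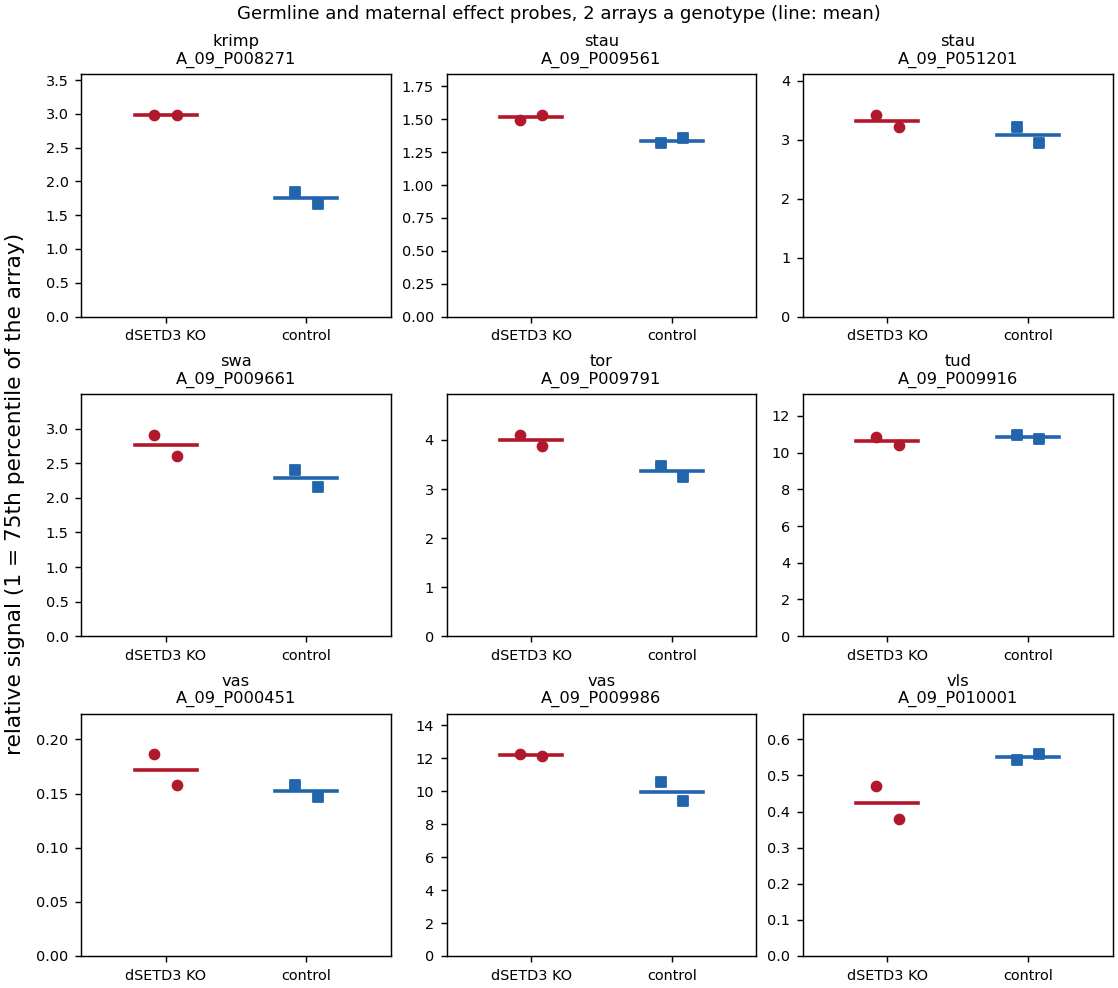
Relative signal of the 9 germline and maternal effect probes (vertical axis from 0, where 1 is the 75th percentile of the array) on the 2 dSETD3 KO arrays (circles, left) and the 2 control arrays (squares, right), with lines at the means. The krimp points lie at 2.99 and 2.99 in dSETD3 KO flies and at 1.84 and 1.67 in control flies, while those of tud overlap.

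Krimper, the product of krimp on arm 2R, is a Tudor domain protein of the nuage that acts in the piRNA pathway. The krimp probe had a relative signal of 2.99 and 2.99 in dSETD3 KO flies, against 1.84 and 1.67 in control flies. The groups did not overlap, and the control arrays lay further apart than the dSETD3 KO arrays. The signals before scaling were 4964 and 3523 in dSETD3 KO flies, against 3000 and 2945 in control flies, so the probe was also the brighter in dSETD3 KO flies without any scaling. The level was 1.71-fold higher in dSETD3 KO flies (95% interval 1.43 to 2.04), a log2 change of 0.77 ± 0.09 (SE) with a limma adjusted p of 0.0200. This probe had 1 spot per array. The log2 change was 0.84 without control replicate 1 and 0.70 without control replicate 2. No probe of the array was called in either fit, so neither tests the krimp call. The krimp call was lost without the filter on dim probes (limma adjusted p of 0.0783), a fit that called 64 of 32152 probes. It was also lost by the methods' t-test (adjusted p of 0.136 over all probes), which called 2 of 21082 probes.

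Both vas probes had higher values in dSETD3 KO flies that did not pass the test. Probe A_09_P009986 had a relative signal of 12.2 and 12.1 in dSETD3 KO flies, against 10.6 and 9.40 in control flies, so that the groups did not overlap. Its log2 change was 0.29 ± 0.10 (SE), with a 95% interval of 0.02 to 0.56 and a limma adjusted p of 0.0994. Probe A_09_P000451 had 0.186 and 0.158 in dSETD3 KO flies, against 0.158 and 0.147 in control flies. Here the lower dSETD3 KO array and the higher control array almost met, and the log2 change was 0.17 ± 0.12 (SE) with a limma adjusted p of 0.307. Without dSETD3 KO replicate 1 it was 0.05, without dSETD3 KO replicate 2 it was 0.29, and with quantile normalization 0.39. The 95% interval of this probe, -0.15 to 0.50, held the change of the other.

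Tudor and Valois are further components of the germ plasm. Tudor, from tud on arm 2R, binds Piwi-family proteins that carry methylated arginines, and Valois, from vls on arm 2L, is a partner of the enzyme that methylates them. The tud probe had a relative signal of 10.9 and 10.4 in dSETD3 KO flies, against 11.0 and 10.8 in control flies. The groups overlapped, and the log2 change of -0.03 ± 0.08 (SE), which turned to 0.27 with median centring, had a 95% interval of -0.26 to 0.20 and a limma adjusted p of 0.781. The vls probe had 0.470 and 0.378 in dSETD3 KO flies, against 0.544 and 0.559 in control flies. Both dSETD3 KO arrays lay below both control arrays, and the dSETD3 KO arrays differed from each other by 0.31 on the log2 scale, against 0.04 between the control arrays. The log2 change of vls was -0.39 ± 0.14 (SE) with a limma adjusted p of 0.105. Without dSETD3 KO replicate 1, the higher of that pair, it was -0.54 with a limma adjusted p of 0.0462, and without dSETD3 KO replicate 2 it was -0.23.

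The products of stau and swa act in moving mRNA within the oocyte. Staufen, from stau on arm 2R, is a double-stranded RNA-binding protein that accompanies oskar and bicoid mRNA, and Swallow, from swa on the X chromosome, is needed to hold bicoid mRNA at the anterior. In RefSeq, 56 protein-coding genes lie between swa and CG32732. The stau probe A_09_P009561 had a relative signal of 1.50 and 1.53 in dSETD3 KO flies, against 1.32 and 1.36 in control flies. The stau probe A_09_P051201, which reads the same transcript, had 3.42 and 3.22 in dSETD3 KO flies, against 3.21 and 2.94 in control flies. Both log2 changes were small, 0.18 ± 0.08 (SE) and 0.11 ± 0.10 (SE), with limma adjusted p-values of 0.167 and 0.405. For A_09_P051201 the change was 0.18 without control replicate 1, 0.05 without control replicate 2, 0.07 without dSETD3 KO replicate 1 and 0.02 with quantile normalization. The swa probe had 2.92 and 2.61 in dSETD3 KO flies, against 2.40 and 2.16 in control flies, and a log2 change of 0.28 ± 0.11 (SE) with a limma adjusted p of 0.132. For all 3 probes both dSETD3 KO arrays lay above both control arrays, as for 39.4% of all probes tested, without passing the test. For A_09_P051201 the lower dSETD3 KO array and the higher control array almost met.

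Torso, from tor on arm 2R, is the receptor tyrosine kinase through which maternal signals mark the ends of the embryo. Its probe had a relative signal of 4.11 and 3.87 in dSETD3 KO flies, against 3.47 and 3.25 in control flies. The groups did not overlap, and the log2 change was 0.25 ± 0.09 (SE) with a limma adjusted p of 0.116.

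**Figure D2:**
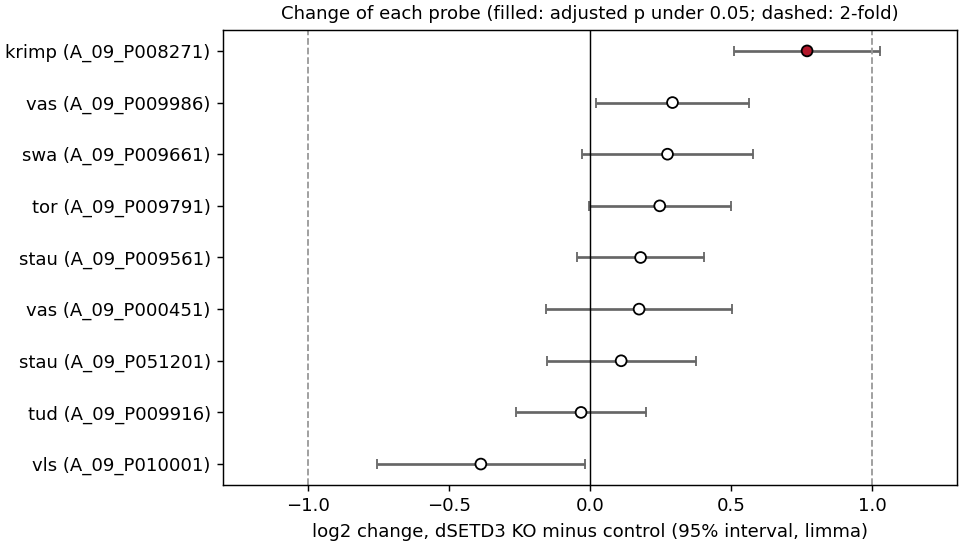
Log2 change of each probe, dSETD3 KO minus control, with its 95% interval from limma (bars) and dashed lines at a 2-fold change. Only krimp, at 0.77, is filled for an adjusted p under 0.05 (6 probes are with median centring); vls lies lowest at -0.39, and tud, at -0.03, turns positive with median centring.

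Agreement between spots was close. The 5 probes with 2 spots per array gave 20 pairs of spots, whose log2 signals differed by a median of 0.07 and at most by 0.23. No spot of these probes was an outlier. Between arrays of the same genotype the same probes differed by up to 0.17 in control flies and up to 0.31 in dSETD3 KO flies on the log2 scale.

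**Figure D3:**
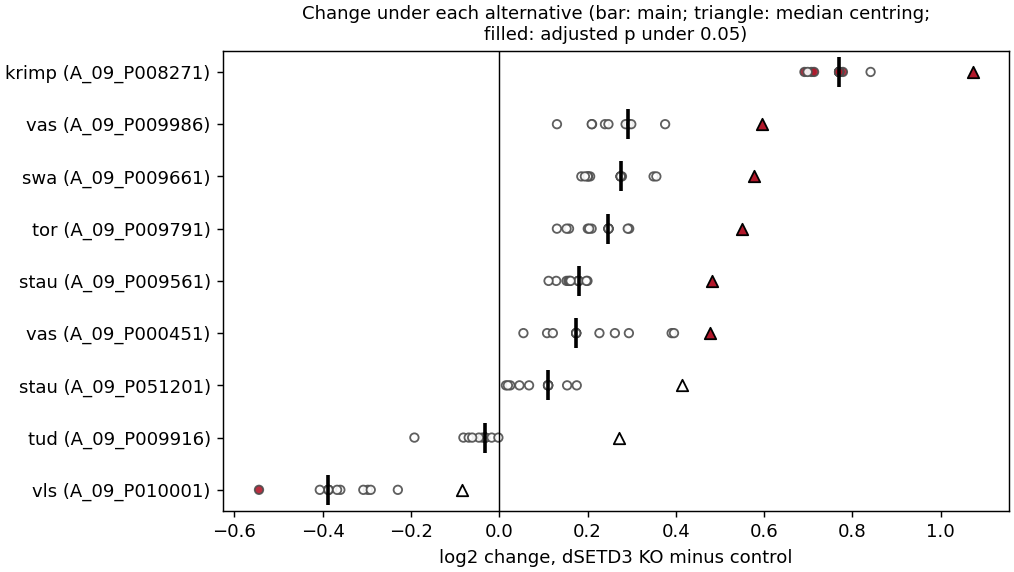
Log2 change of each probe, dSETD3 KO minus control, in the main fit (black bars) and under 13 alternatives (circles, with triangles for median centring), filled where the adjusted p was under 0.05. The krimp values lie between 0.69 and 1.07, vls stays below 0 throughout, and tud is the only probe to change sign, at 0.27 with median centring.

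Further genes of oogenesis were counted from lists written for the purpose, leaving out the 31 genes above. Together 5 such lists gave 22 genes with a named probe and 31 probes tested, of which 1 was higher and 3 were lower in dSETD3 KO flies at an adjusted p under 0.05 (limma). That is 12.9%, against 20.4% of all probes tested, and the median log2 change was 0.15, against 0.02. The split differed with the scaling: 3 of these probes were called higher and 1 lower with quantile normalization, which called 18.3% of all probes tested, and 17 higher and 2 lower with median centring, which called 51.7% of all probes tested.

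The other piRNA genes with a named probe were AGO3, cuff, Hen1 and tej. None of their 6 probes passed, against 20.4% of all probes tested (limma, with 0 at an unadjusted p under 0.05). Their log2 changes were 0.13 to 0.32 with a median of 0.20. By the methods' t-test 0 passed after adjustment, when it called 2 of all 21082 probes, and 1 before it. With median centring, which called 51.7% of all probes tested, all 6 were called higher. From the deposited value table, which gave 24.5% of all probes tested as called, 2 of the 6 were called higher. The genes of meiosis, oocyte maturation and egg activation gave 8 probes tested, for endos, Rad51C, mos, stg, thr and cdc2. None passed (limma, with 4 at an unadjusted p under 0.05; by the t-test 0 after adjustment and 2 before it), and their log2 changes were 0.04 to 0.46 with a median of 0.31. The lowest limma adjusted p among them, 0.0501 for a Rad51C probe, was just above the limit, and with quantile normalization or cyclic loess both Rad51C probes were called higher. Of the other RNA localisation and translation genes, Not1 and tsu had 3 probes with a median log2 change of 0.02. This median was below 0 with quantile normalization and cyclic loess. None of the 3 passed, against 20.4% of all probes tested (limma, with 1 at an unadjusted p under 0.05). By the t-test 0 passed after adjustment and 1 before it, and with median centring 1 was called higher.

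Among the other maternal patterning genes, Tl, trk, tsl and tub had 5 probes with a median log2 change of 0.34. Of these 1 passed, which is 20.0%, against 20.4% of all probes tested. Toll, the product of Tl, is the receptor of the embryo's dorsoventral axis. Its probe had a relative signal of 9.23 and 8.42 in dSETD3 KO flies, against 6.41 and 5.72 in control flies, and rose with a log2 change of 0.54 ± 0.11 (SE) and a limma adjusted p of 0.0401. The groups did not overlap. The log2 change was 0.62 without control replicate 1 and 0.46 without control replicate 2, fits in which no probe of the array was called. Without dSETD3 KO replicate 1 it was 0.48 and the call was lost. The Tl call was also lost with quantile normalization and cyclic loess (limma adjusted p of 0.0512 and 0.0550), with normexp background correction (0.0603) and with the replicate number as a block (0.0523). It was lost without the filter on dim probes (limma adjusted p of 0.120), which called 64 of 32152 probes. After the adjustment added here the methods' t-test, which called 2 of 21082 probes, did not call it either (adjusted p of 0.153).

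The other germline stem cell and cyst genes, hts, nclb, stil, Sxl and alpha-Spec, had 9 probes with a median log2 change of -0.11, which was 0.20 with median centring. Of these 9 probes 3 passed, which is 33.3%, against 20.4% of all probes tested. The 3 were lower in dSETD3 KO flies, as 16.6% of all probes tested were. All 3 read Sxl, the switch gene of female sex determination, which is also needed for germ cells to leave the stem cell state. In RefSeq 15 protein-coding genes lie between Sxl and CG32732. Sxl probe A_09_P009681 had a relative signal of 0.0956 and 0.108 in dSETD3 KO flies, against 0.155 and 0.175 in control flies, with a log2 change of -0.70 ± 0.12 (SE) and a limma adjusted p of 0.0292. Sxl probe A_09_P143460, assigned to the same transcript, had 0.0493 and 0.0442 in dSETD3 KO flies, against 0.0718 and 0.0924 in control flies, with a log2 change of -0.80 and a limma adjusted p of 0.0390. The groups did not overlap for either. Sxl probe A_09_P009671, assigned to a different transcript, had a log2 change of -0.37 with a limma adjusted p of 0.0495. The 2 remaining Sxl probes, which share another transcript again, had log2 changes of -0.03 and 0.01 and did not pass. The log2 change of A_09_P009681 was -0.78 without control replicate 1 and -0.61 without control replicate 2, fits in which no probe of the array was called. Of the Sxl probes only A_09_P009681 was called with quantile normalization or cyclic loess, where its log2 change was -0.45. With normexp background correction and from the deposited value table none was called, the log2 change of A_09_P009681 being -0.40 and -0.29 (limma adjusted p of 0.143 and 0.0832) and that of A_09_P143460 -0.37 and -0.36 (limma adjusted p of 0.107 and 0.0518). None was called without the filter on dim probes, a fit that called 64 of 32152 probes. By the methods' t-test after adjustment, which called 2 of 21082 probes, none was called either.

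**Figure D4:**
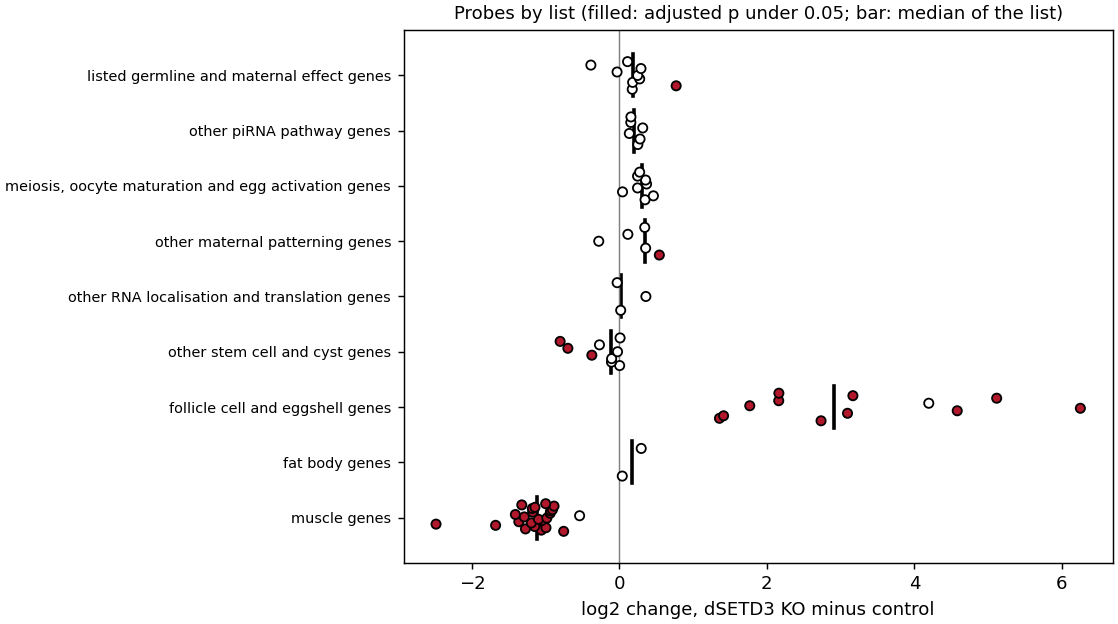
Log2 change, dSETD3 KO minus control, of every probe tested in 9 gene lists, filled where the limma adjusted p was under 0.05, with a bar at each list's median. The germline and maternal lists lie near 0, with medians of -0.11 to 0.34 (-0.13 to 0.42 with quantile normalization and 0.20 to 0.65 with median centring), while follicle cell and eggshell probes have a median of 2.91 and muscle probes of -1.12.

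Follicle cell and muscle markers had larger changes than the germline probes in the same samples. Part of these marker probes could be named only from the study's table of changed probes, so the size of this contrast depends partly on the naming. The relative signals of the germline markers vas, swa and tor, summed over 4 probes, were 19.5 and 18.8 in dSETD3 KO flies, against 16.6 and 15.0 in control flies. Follicle cells, the somatic cells that surround each egg chamber and secrete the eggshell, gave 12 probes with a summed relative signal of 213 and 232 in dSETD3 KO flies, against 57.0 and 71.8 in control flies. Of these 12 probes 11 were called higher (limma), against 3.8% of all probes tested. The other, Cp7Fb probe A_09_P047621, was not called (limma adjusted p of 0.292), and its groups overlapped. Its signals were 804.5 and 1188 in dSETD3 KO flies, against 1030 and 4.06 in control flies. The 11 read the vitelline membrane and eggshell genes Vm26Aa, Vm26Ab, Vm26Ac, Vm32E, Vm34Ca, Vml, psd and Cp7Fb. Part of these names came from the study's own table of changed probes and are not independent evidence of a direction or a size. Among the 4 probes named otherwise all 4 rose, with log2 changes of 1.36 to 3.09 and a median of 2.07. The marker lists were chosen with earlier results of these data known, so these 4 are not independent evidence either.

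Muscle markers gave 24 probes, for Mhc, Mlc1, Mlc2, Tm2, up, wupA, fln, Prm and Act88F, whose summed relative signal was 147 and 143 in dSETD3 KO flies, against 298 and 299 in control flies. Of these 23 were called lower (limma), against 16.6% of all probes tested. The median log2 change of the 24 was -1.12. The same caution on names and on the choice of the list holds. The 5 probes named otherwise read only 2 genes, Tm2 and wupA, and all 5 fell. Without either control replicate no follicle cell, eggshell or muscle probe was called, as no probe of the array was (limma; 7183 probes at an unadjusted p under 0.05 without control replicate 1 and 4817 without control replicate 2). The yolk protein genes Yp1 and Yp3, expressed in fat body and follicle cells, had log2 changes of 0.04 and 0.30. Neither passed, against 20.4% of all probes tested (limma, with 1 at an unadjusted p under 0.05). By the t-test 0 passed after adjustment and 1 before it. The testis markers betaTub85D, loopin-1, S-Lap5, S-Lap7, S-Lap8, Sdic1 and Pp1-Y1 had 14 probes, with signals between 2.51 and 19.1, and 0 of them passed the filter on dim probes. The part of follicle cell and muscle RNA in the krimp, vls, Tl and Sxl values was not tested.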

How the data were processed

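Virgin females were measured on 4 arrays, 2 of dSETD3 KO and 2 of control flies, grouped by their labels. The authors deposited, for each array, spot intensity values from Agilent Feature Extraction 10.7.3.1 after that software's background subtraction, without normalization between arrays, together with spot flags. The intensity values deposited for control replicate 1 are rounded to 3 significant digits. A deposited table of 1 intensity per probe holds, for 31962 probes, the average of the median spot intensities (tolerance 0.01). The probe design names an older genome release than RefSeq, so no coordinates are given. No array normalization is given in the sources used here. 

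After removal of control spots and of the 45 to 73 outlier spots on each array, each probe was given the mean log2 signal of its spots, less that array's 75th percentile. This percentile was a signal of 1662 and 1179 on dSETD3 KO arrays, against 1630 and 1766 on control arrays. A probe was tested if both arrays of either genotype showed it well above background. The test was that of limma 3.58.1 (lmFit, eBayes, R 4.3.3) on genotype alone, adjusted by Benjamini-Hochberg over 21082 probes, and a probe was called at an adjusted p under 0.05. A further 7 probes with outlier spots alone on an array were left out. The number of arrays, 2 per genotype, limits the precision. The fit was tested on simulated data. Python 3.11.15 with numpy 2.4.6, pandas 2.3.3 and matplotlib 3.10.9 made the tables and plots.

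The study's supplementary probe table, of which 1992 rows of a partial copy could be used, named 1557 probes, its table of changed probes 203, RefSeq accessions 406, RefSeq synonyms 12 and a shared transcript identifier 617. None of the 9 probes was named by the table of changed probes. The members and lists were chosen with earlier results of these data known. Every member with a named probe is named in the text. Of the other lists (other piRNA pathway, stem cell and cyst, RNA localisation and translation, meiosis, oocyte maturation and egg activation, and maternal patterning genes, with follicle cell, fat body, male germline and muscle markers), genes with a called probe are named with values where a result turns on them, and the rest are named or counted. Replicate numbers are shared between the genotypes, but nothing in the labels pairs them. Alternatives were other normalizations, normexp background correction with an offset of 50 on median spot intensities, the deposited table, other filters, each replicate left out, the replicate number as a block, the methods' t-test, and a 2-fold limit with an unadjusted p under 0.05.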

Additional observations from a re-analysis of the deposited data

How the results depend on the processing

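Over all probes, 4298 were called in the main fit. The count was 10909 with median centring, 1796 with normexp background correction, 64 without a filter on dim probes, 2 by the methods' t-test after Benjamini-Hochberg adjustment (6404 before it), 1326 at a 2-fold change with an unadjusted p under 0.05, and 0 to 4809 with 1 array left out. Without control replicate 1 or 2 it was 0 in limma, with 7183 and 4817 probes at an unadjusted p under 0.05. The cause was not tested. Of the 9 germline and maternal effect probes, 1 was called in the main fit, 6 with median centring, 0 without the filter, 0 by the t-test (2 before adjustment), 0 at the 2-fold limit, and 0 to 2 with 1 array left out. Their median log2 change of 0.18 was 0.48 with median centring and 0.19 to 0.29 with 1 array left out. Its distance of 0.16 from the median of all probes was the same with median centring by construction, as every change shifts alike. The median log2 change itself, not its distance, was 0.23 when probes were averaged by gene first and 0.21 over names from the supplementary probe table alone. The log2 change of tud, -0.03, turned to 0.27 with median centring.

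The deviations of same-numbered arrays from their group means had r = -0.21. With 2 arrays per genotype this value cannot show whether the numbers pair the samples. With the replicate block 2891 probes were called over all probes and 1 of the 9. An alternative chosen after seeing the data, the block with the numbers of the dSETD3 KO arrays crossed, called 1719 over all probes and 1 of the 9. For single germline probes, 106 of the values under alternatives kept their direction and their side of the threshold, 6 passed it newly, 4 lost it and 1 changed sign. Part of the 106 was fixed in advance. The other filters, the replicate block and the t-test keep the main estimate, so direction could not change there. Where few or no probes of the array were called, probes not called in the main fit had little or no room to pass. The krimp log2 change lay between 0.69 and 1.07 with limma or t-test adjusted p-values of 0.00579 to 0.137, those of vas probes A_09_P009986 and A_09_P000451 between 0.13 and 0.60 and between 0.05 and 0.48, those of stau probes A_09_P009561 and A_09_P051201 between 0.11 and 0.48 and between 0.02 and 0.41, that of swa between 0.19 and 0.58, that of tor between 0.13 and 0.55, and that of vls between -0.54 and -0.08. All 9 probes were well above background on every array. The limits lay in the number of arrays, 2 per genotype on 1 slide, and in the share of the list that could be named, 7 of 31 genes.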
